A study of Mus musculus with 12 samples.

Results

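The difference between the responses of STHdhQ7/Q7 and STHdhQ111/Q111 cells to IFNγ and LPS was described gene by gene. For each gene, the log2 change in Q7 cells (Q7-T against Q7-C) was subtracted from the log2 change in Q111 cells (Q111-T against Q111-C). A positive value therefore means a larger rise or a smaller fall in Q111, here called higher in Q111, and a negative value the same for Q7. Of the 29428 genes in the table, 16127 reached an abundance of at least 0.5 TPM, a length-normalized unit scaled to the same sum in every library, in at least 3 of the 12 libraries and were tested. Both lines are immortal mouse striatal cell lines, and each is a single line, so the genotype and any other difference between the lines cannot be told apart. The Q7 line carries the wild-type Htt allele with 7 CAG repeats and the Q111 line carries 111 repeats on both alleles. Q7-T and Q111-T cells received 100 ng/mL IFNγ together with 5 μg/mL LPS for 24 h, and Q7-C and Q111-C cells were nontreated. Each group held 3 libraries of poly(A) RNA, with 57505990 to 96417834 estimated counts per library. The study's text calls the libraries of a group biological replicates and the labels name no separate cultures, so p-values measure the spread between these libraries.

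IFNγ signals through JAK kinases to factors that bind GAS elements and induce IRF1, the GBP and IRG GTPases and the machinery of antigen presentation. LPS signals through TLR4 to NF-κB and AP-1, which induce cytokines and chemokines, and to IRF3 and type I interferon. Type I interferon acts on ISRE elements and induces antiviral genes. Expanded CAG repeats in Htt cause Huntington's disease, and the comparison asks which functions respond differently to an inflammatory stimulus in the line that carries them.

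The striatal identity in the labels was only partly visible. Of 21 genes of striatal neurons, 8 passed the filter, and Gad1, Gad2, Pdyn, Foxp2, Bcl11b and Rgs9 stayed below 0.5 TPM in all 12 libraries. Of 16 macrophage and microglia markers, 2 passed, Tmem119 and Cd68, and Ptprc did not exceed 0.00642 TPM in any library. Mesenchymal markers were abundant, with summed levels of 5550 to 5880 TPM in Q7-C, 4350 to 4460 in Q7-T, 5220 to 5370 in Q111-C and 2100 to 2200 in Q111-T.

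A pair of Q7 libraries stood apart. Q7-T replicate 2 and Q7-C replicate 1 had the fewest genes at 0.5 TPM or more, 13579 and 13695, against 14077 to 15159 in the other 10 libraries. Their 50 most abundant genes held 22.9% and 21.1% of the counts, against 12.5% to 17.0% in the other libraries. Q7-T replicate 2 had the lowest TPM of its group for 69.3% of the genes tested, for 88.2% of those called higher in Q111 and for 80.3% of those called higher in Q7. In Q111-T replicate 2, mitochondrial transcripts held 5.77% of the counts, against 3.17% and 3.65% in the other 2 libraries of its group, and the 50 most abundant genes held 15.6%, against 12.5% and 12.8%. Counts without Q7-T replicate 2 are given beside many of the lists, and the part of these libraries in the results beyond the values given was not tested.

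In total, 760 genes passed an adjusted p of 0.05 and a difference of at least 1 on the log2 scale (2-fold), which is 4.71% of the genes tested. The response was higher in Q111 for 567 genes (3.52%) and higher in Q7 for 193 genes (1.2%). The median difference over all genes tested was -0.02, and 48.7% of the genes lay above 0. Without Q7-T replicate 2 the count rose to 998, with 701 of the 760 genes called again in the same direction. Of the 760 genes, 436 were called with each of the 12 libraries left out in turn. Without Q7-T replicate 2, the counts toward Q111 and Q7 were 19 and 2 in the p53 signaling pathway, 14 and 1 in early-response factors, 10 and 0 in Nrf2 targets and 0 and 4 in MHC class I presentation.

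The 2 directions had different make-up. Of the 567 genes higher in Q111, 398 were induced at least 2-fold in Q111 with no call in Q7, 37 were induced in both lines, 38 fell in Q7 alone and 9 fell in Q7 but rose in Q111. The remaining 85 passed neither response test, so only the difference was called. Of the 193 genes higher in Q7, 103 fell in Q111 with no call in Q7 and 8 fell in both lines. A further 20 were induced in both lines, 17 were induced in Q7 alone and 43 passed neither response test. Including the 2 genes that rose in Q7 and fell in Q111, 113 of the 193 were genes that fell in Q111. For comparison, 2.93% of the genes tested were called as rising and 1.11% as falling in Q7, against 8.28% and 2.96% in Q111.

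**Figure D1:**
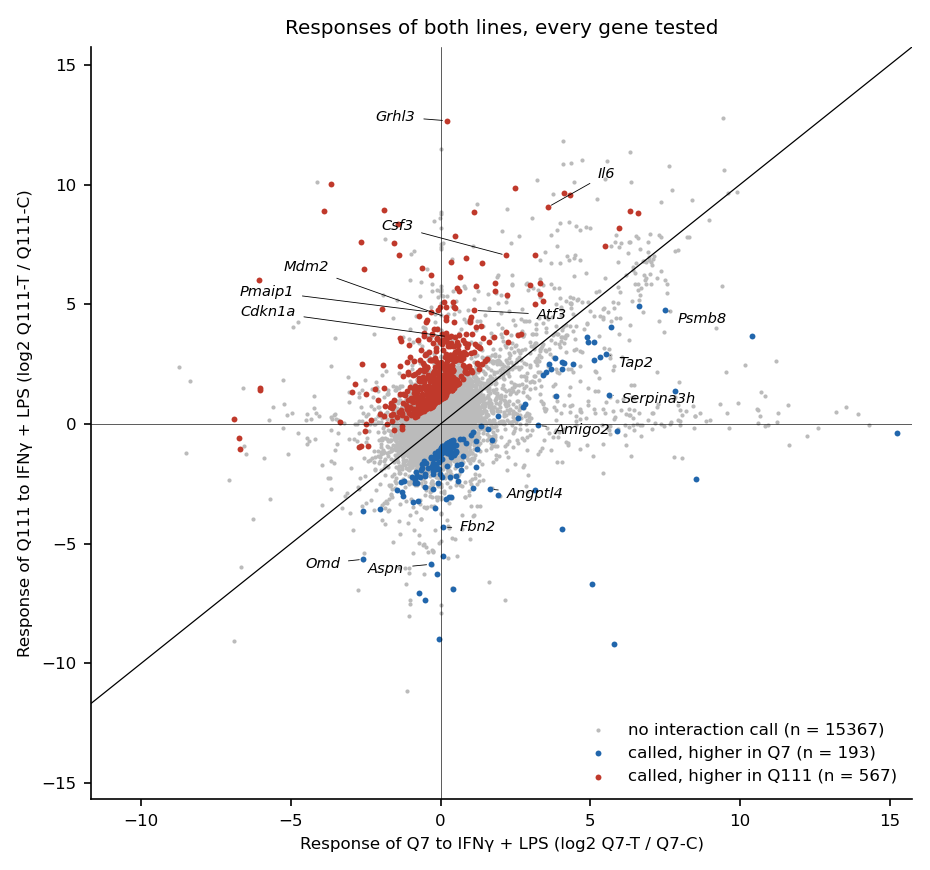
Log2 response to IFNγ and LPS of each of the 16127 genes tested, Q7 on the horizontal axis and Q111 on the vertical axis. The line marks equal responses, red points are the 567 genes called higher in Q111, blue points the 193 called higher in Q7, and grey points the 15367 genes without a call. Many red points lie near 0 on the Q7 axis.

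The p53 signaling pathway had the highest share of calls toward Q111 among the 283 KEGG pathways with at least 15 genes tested. p53 is stabilized by DNA damage and other stress and induces genes of cell cycle arrest, apoptosis and its own degradation. Of its 68 genes, 17 (25%) were higher in Q111 and 1 was higher in Q7, against 4.78% and 1.33% of the 5108 annotated genes tested. Only 5 of the 68 were called as responding in Q7 in either direction, whereas 21 were called as rising in Q111. The median response was 0.05 in Q7 and 0.53 in Q111. The mRNA of Trp53 itself, which encodes p53, had a difference of -0.44 (adjusted p = 0.494), and its level lay between 89.1 and 132.7 TPM in all 12 libraries.

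Cdkn1a, the inhibitor of cyclin-dependent kinases known as p21, was at 106, 140 and 129 TPM in Q7-C and at 146, 97.7 and 158 TPM in Q7-T. In Q111-C it was at 55.1, 60.6 and 57.2 TPM and in Q111-T at 700, 642 and 673 TPM. The Q7 groups overlapped, whereas the Q111 groups were far apart and Q111-T was above every other library. The difference was 3.38 ± 0.18 (SE) on the log2 scale (adjusted p = 1e-05), and 3.39 without Q7-T replicate 2. Mdm2, the ubiquitin ligase that degrades p53, was at 33.7, 59.3 and 62.2 TPM in Q7-C and at 76.5, 21.8 and 63.9 TPM in Q7-T. It was at 34.8, 40.6 and 44.5 TPM in Q111-C and at 854, 742 and 876 TPM in Q111-T. Its difference was 4.29 ± 0.34, again with overlapping Q7 groups. Pmaip1, which encodes the BH3-only death protein Noxa, was at 6.04, 11.2 and 10.4 TPM in Q7-C, 12.7, 1.2 and 7.84 TPM in Q7-T, 7.08, 9.53 and 9.58 TPM in Q111-C and 211, 196 and 214 TPM in Q111-T. The lowest Q7-T value was that of replicate 2, and without it the difference was 4.53 instead of 4.98. Gadd45a, Ccng1, Pidd1, Sesn2, Ppm1d and Bbc3, the last of which encodes the death protein Puma, had differences between 2.11 and 2.58, and each was called with any of the 12 libraries left out. Apaf1 (2.02) and Rrm2 (1.36) were called in only 3 of those 12 fits. Serpinb5 (5.63) fell to 0 TPM in all Q7-T libraries, so its size and direction are set by a group without reads. With that group set at a limit of 12 counts its difference was -0.96, and its direction also turned when log2(TPM + 0.5) was tested. Its response in Q111 was -1.06, without a call. Members without a call had differences from -0.83 (Cdkn2a) to 2.26 (Igf1). Among them were Bax (0.87), Ddb2 (0.23), Aifm2 (-0.07) and Sesn1 (-0.37), so the rise in Q111 was not shared by the whole pathway. Igfbp3, a binding protein of insulin-like growth factors, was the 1 member higher in Q7. It went from 5.11, 4.11 and 4.64 TPM to 35.7, 13.8 and 30.5 TPM in Q7, while it stayed between 16.1 and 20.7 TPM in Q111.

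Outside the KEGG pathway, Btg2, Trp53inp1 and Gdf15, which are known p53 targets and were chosen after their values were seen, had differences of 3.72, 3.63 and 4.16. Their mean levels were 26.0, 10.5 and 11.5 TPM in Q111-C and 295, 137 and 214 TPM in Q111-T, and in Q7 they were 27.5, 12.2 and 2.55 TPM before and 23.7, 12.7 and 2.50 TPM after treatment.

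Promoter windows of genes that carry the contrast are shown from RefSeq (GRCm38.p6), from 250 bases before to 50 bases after an annotated start, on the gene's strand. Capitals mark a motif match, and the windows were picked after the values were seen. For the p53 half-site, the windows are those of Cdkn1a (chr17:29090729-29091028, plus strand, 2 matches, from -73 and -51) and Mdm2 (chr10:117710709-117711008, minus strand, 1 match, from -186). The other 3 are Rsad2 with the ISRE core GAAANNGAAA (chr12:26456403-26456702, minus strand, from -120), Il6 with an NF-κB site (chr5:30012864-30013163, plus strand, from -44) and Psmb8 with the GAS core TTCNNNGAA (chr17:34197945-34198244, plus strand, from -97). The ISRE match in Rsad2 is on the opposite strand.
Cdkn1a: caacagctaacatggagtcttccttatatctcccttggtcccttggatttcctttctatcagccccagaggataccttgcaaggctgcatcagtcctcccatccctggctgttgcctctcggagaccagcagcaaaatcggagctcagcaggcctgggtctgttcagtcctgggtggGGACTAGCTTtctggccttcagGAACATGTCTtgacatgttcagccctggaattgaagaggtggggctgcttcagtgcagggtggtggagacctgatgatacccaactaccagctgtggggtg
Mdm2: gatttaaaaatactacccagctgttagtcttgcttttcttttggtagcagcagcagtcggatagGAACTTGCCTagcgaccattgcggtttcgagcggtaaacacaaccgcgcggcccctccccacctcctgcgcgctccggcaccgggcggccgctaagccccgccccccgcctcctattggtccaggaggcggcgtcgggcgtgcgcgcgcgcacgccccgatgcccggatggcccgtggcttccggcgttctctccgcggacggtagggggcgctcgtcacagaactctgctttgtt
Rsad2: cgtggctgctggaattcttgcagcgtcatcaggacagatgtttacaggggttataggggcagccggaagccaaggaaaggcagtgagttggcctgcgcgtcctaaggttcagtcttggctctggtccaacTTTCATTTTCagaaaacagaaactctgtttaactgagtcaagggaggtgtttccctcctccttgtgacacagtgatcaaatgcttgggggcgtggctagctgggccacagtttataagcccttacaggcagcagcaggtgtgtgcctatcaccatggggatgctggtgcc
Il6: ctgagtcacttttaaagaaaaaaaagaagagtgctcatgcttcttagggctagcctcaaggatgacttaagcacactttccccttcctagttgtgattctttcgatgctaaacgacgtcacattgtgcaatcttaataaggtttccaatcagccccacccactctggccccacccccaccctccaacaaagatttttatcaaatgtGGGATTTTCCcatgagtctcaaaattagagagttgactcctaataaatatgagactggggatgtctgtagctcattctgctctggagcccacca
Psmb8: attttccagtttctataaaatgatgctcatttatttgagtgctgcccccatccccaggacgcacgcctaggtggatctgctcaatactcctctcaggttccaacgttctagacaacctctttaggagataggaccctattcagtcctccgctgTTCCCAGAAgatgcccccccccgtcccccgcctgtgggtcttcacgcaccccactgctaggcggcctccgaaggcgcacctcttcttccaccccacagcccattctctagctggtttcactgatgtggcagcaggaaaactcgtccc

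Windows were matched for 10616 of the genes tested (65.8%), and both strands were searched, each motif on its own, so that a base may belong to more than one match. A p53 half-site was in 6 of the 13 windows of p53 pathway genes higher in Q111 (46.2%), in 11.3% of the 425 windows of all genes higher in Q111, in 4.96% of those higher in Q7, in 8.55% of those of genes induced in both lines without a difference call and in 6.74% of all windows. The ISRE core was in 24.4% of the 234 windows of genes induced in both lines without a difference call, against 3.53% for genes higher in Q111, 7.09% for the 141 genes higher in Q7 and 3.1% of all windows. The GAS core was in 18.8%, 4.94%, 11.3% and 6.91% of the same sets. The NF-κB site was in 17.5%, 11.5%, 16.3% and 10.3%, the AP-1 site in 8.12%, 4.0%, 8.51% and 3.81%, and the cyclic AMP element TGACGTCA in 1.71%, 3.29%, 2.84% and 3.18%. These shares are descriptions of the letters in the windows.

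**Figure D2:**
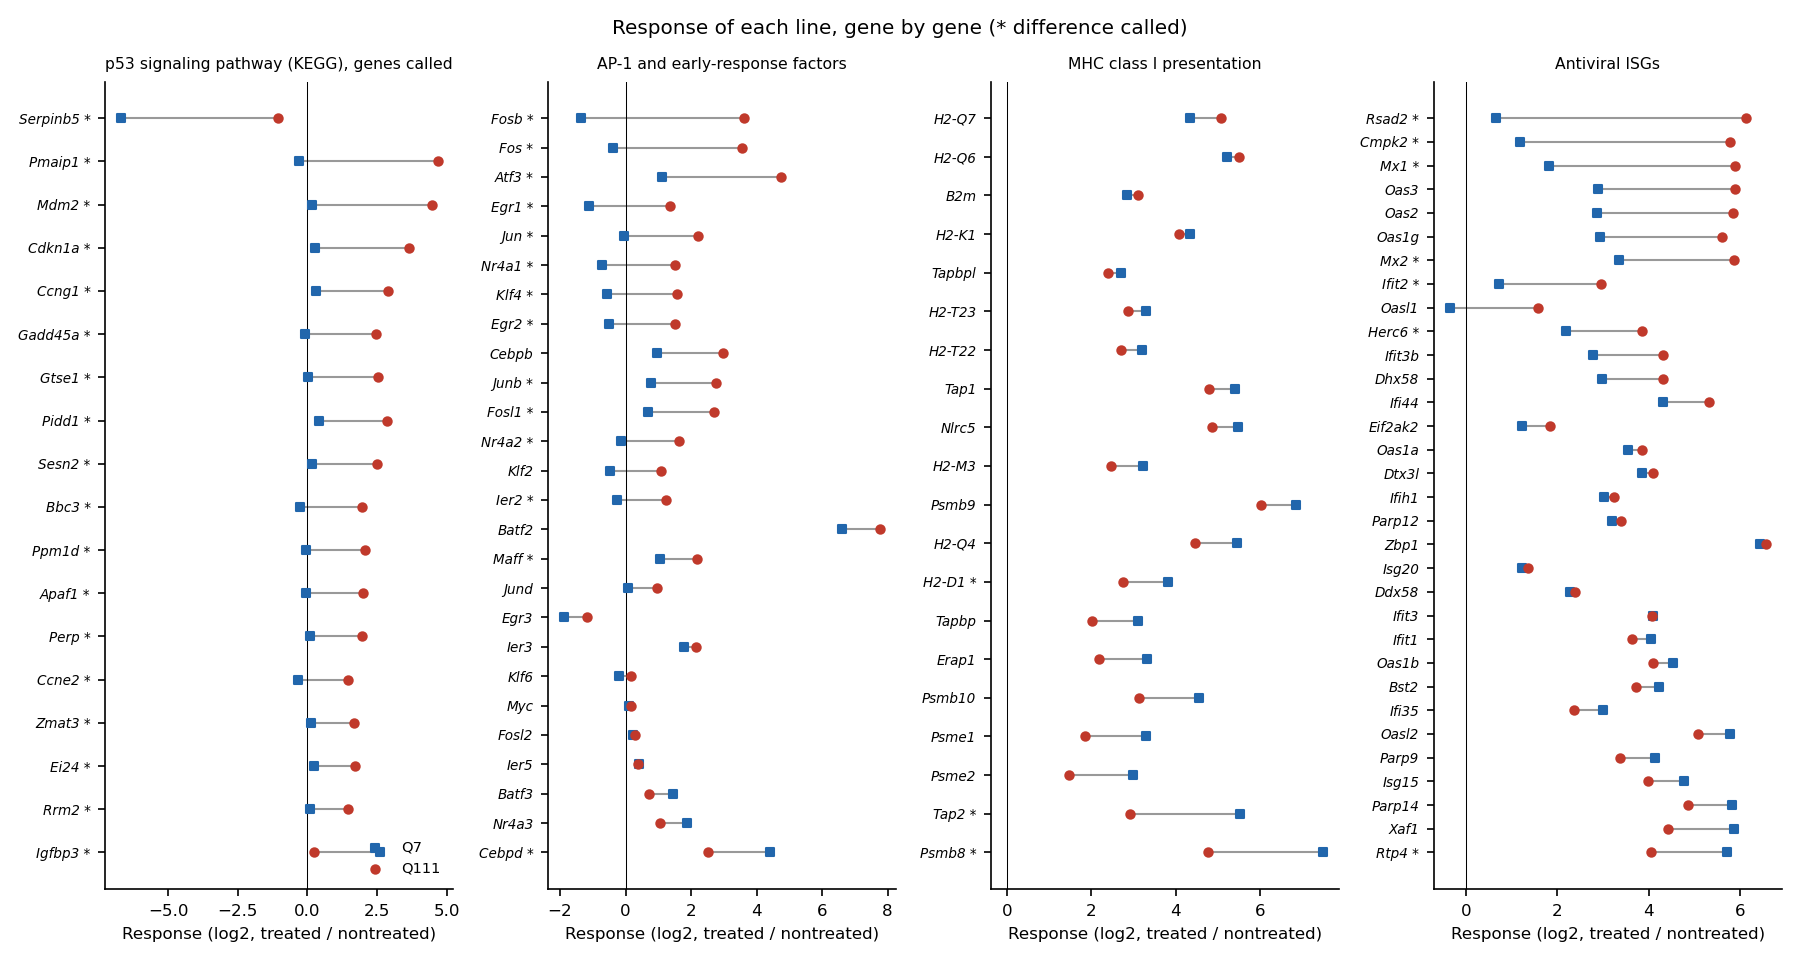
Log2 response of each gene in Q7 (blue squares) and Q111 (red circles) for the 18 called genes of the KEGG p53 signaling pathway and for every tested gene of 3 lists, ordered by the difference. Asterisks mark genes whose difference was called. Most p53 pathway genes sit near 0 in Q7, most MHC class I genes lie further right in Q7, and the antiviral genes split in both directions.

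AP-1 and early-response factors, which couple stress and mitogen signals to transcription, were the list with the most calls. Of 26 genes tested, 13 were higher in Q111 and 1 in Q7, with a median difference of 1.52 against -0.02 for all genes. Fos went from 2.15, 2.92 and 1.60 TPM in Q111-C to 27.6, 24.8 and 19.8 TPM in Q111-T, while in Q7 it was at 0.796, 1.64 and 1.83 TPM before and 1.31, 0.368 and 1.33 TPM after treatment. Atf3, a repressor of inflammatory and stress genes, rose in both lines, from 13.5, 15.8 and 16.2 to 29.4, 26.0 and 30.1 TPM in Q7 and from 8.12, 7.94 and 9.90 to 217, 215 and 216 TPM in Q111. None of the Q7-T values overlapped Q7-C for Atf3, and its difference was 3.62 ± 0.25 (adjusted p = 3.71e-05). Fosb (4.96), Egr1 (2.49), Jun (2.25), Nr4a1 (2.22), Klf4 (2.13), Junb (2.00) and Fosl1 (1.99) were called with any library left out. The exception was Cebpd, a partner of NF-κB in the acute phase, which rose from 3.54, 4.62 and 3.59 to 57.4, 78.3 and 72.4 TPM in Q7 and from 6.58, 7.53 and 6.91 to 34.1, 47.0 and 27.8 TPM in Q111. It was called in 5 of the 12 fits with a library left out.

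In the lists of stress responses and energy metabolism, most members were not called, and all those called were higher in Q111. Over all genes tested, 3.52% were called higher in Q111 and 1.2% higher in Q7. The lists are not separate from the p53 signaling pathway, as Sesn2 is counted in both. Of 28 targets of Nrf2, the factor of the oxidative stress response, 8 were higher in Q111 and 0 in Q7, with a median difference of 0.55. The 8 became 5 without Q7-C replicate 2, without Q7-T replicate 3, without any Q111-C library and without Q111-T replicates 1 or 2, each left out alone. Gsta1, a glutathione transferase, was between 32.0 and 41.6 TPM in all 6 Q7 libraries and went from 4.61, 3.57 and 5.25 TPM to 46.8, 45.9 and 45.4 TPM in Q111. Q111-T thus lay just above the range of the Q7 libraries and Q111-C far below it. Nqo1, Gclm, Osgin1 and the cystine transporter Slc7a11 had differences of 1.18 to 1.49, and each was called with any library left out. Of 28 genes of ER stress and the integrated stress response, 5 were higher in Q111 (Sesn2, Ddit4, Ppp1r15a, Vldlr and Trib3) and 0 in Q7, with a median of 0.41, and 3 were without Q111-C replicate 3. Of 19 heat shock genes, which encode chaperones, 2 were higher in Q111, and the list's median of -0.28 lay toward Q7 and between -0.36 and -0.12 over the alternatives. In the list of glycolysis and itaconate, 4 of 22 were higher in Q111. Among these, the glucose transporter Slc2a1 went from 44.0, 47.8 and 47.3 TPM to 209, 185 and 182 TPM in Q111 and from 69.4, 80.5 and 81.9 TPM to 96.9, 51.4 and 90.1 TPM in Q7. The list's median was 0.01, and 11 of its 22 genes lay above 0. No gene of the 33 of the respiratory chain was called, and the list had a median of -0.30, which was between -0.54 and 0.13 over the alternatives. The 14 reference genes had a median of -0.38, so neither this list nor the heat shock genes lay further toward Q7 than those.

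Cytokines of the IL-6 family and colony-stimulating factors had 6 of 16 genes higher in Q111 and 0 in Q7, with a median of 1.25. The 6 became 2 without Q7-C replicate 2 and 3 without Q111-C replicate 1. Il6, which drives the acute phase, was at 0.0648, 1.92 and 1.53 TPM in Q7-C and 21.5, 3.61 and 13.0 TPM in Q7-T. It was at 0.282, 0.470 and 2.98 TPM in Q111-C and 574, 742 and 537 TPM in Q111-T. All treated libraries were above all nontreated libraries, and the lowest Q111-T value was above the highest Q7-T value. The difference of 5.48 ± 1.30 (adjusted p = 0.031) rests on scattered nontreated values and was called in only 4 of the 12 fits with a library left out. Csf3, the granulocyte factor G-CSF, was at 0.739, 1.41 and 0.699 TPM in Q7-T and 37.0, 32.6 and 32.4 TPM in Q111-T, from 0.153 to 0.354 TPM in both nontreated groups. Its difference of 4.85 ± 0.74 held with any library left out, as did that of Lif (3.18 ± 0.32). Csf2 (GM-CSF) had no reads above the detection limit in Q111-C, so its difference is given as a lower bound of 5.08 log2 units, taken with a limit of 12 counts (3 read pairs) per group.

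Chemokines differed less uniformly. Of the 3 ligands of CXCR3, which recruit T cells, Cxcl9 and Cxcl11 were both higher in Q111 by 2.22, whereas Cxcl10 rose by 6.0 in Q7 and 5.51 in Q111 and its difference of -0.49 was not called (adjusted p = 0.621). Cxcl9 was called in 10 and Cxcl11 in 3 of the 12 fits with a library left out, and neither was called without Q111-C replicate 1 or 2. Cxcl9 was at 118, 61.0 and 125 TPM in Q7-T and at 508, 515 and 524 TPM in Q111-T. Ccl2, a ligand that recruits monocytes, was the 1 of 12 CC chemokines called, at 1.71 ± 0.34. None of the 4 neutrophil CXC chemokines tested was called although their median was 1.92, and Cxcl5 missed the threshold with an adjusted p of 0.0528. With sample weights by library quality, 4 of the 4 were called.

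In the nitric oxide and arginine list, 3 of 15 genes were higher in Q111 and 0 in Q7. Nos2, the inducible nitric oxide synthase, was at 140, 43.9 and 146 TPM in Q7-T and 817, 498 and 759 TPM in Q111-T, from 0.733 to 2.58 TPM without treatment. Its difference was 2.59 ± 0.59 (adjusted p = 0.0253), and it was called in 7 of the 12 fits with a library left out, whereas Slc7a2 and Gch1 were called in all 12. Slc7a2, a transporter of arginine, the substrate of nitric oxide synthase, was at 1.47, 2.04 and 2.73 TPM in Q7-C and 2.88, 0.928 and 2.17 TPM in Q7-T. It went from 4.56, 6.27 and 6.89 TPM to 83.5, 57.3 and 83.3 TPM in Q111, with a difference of 3.69 ± 0.33. Gch1, which makes the cofactor of nitric oxide synthase, was between 4.22 and 6.53 TPM in every Q7 library and went from 0.637, 1.04 and 0.360 TPM to 7.83, 7.24 and 6.54 TPM in Q111. In the prostaglandin synthesis list, 2 of 14 genes were higher in Q111 and 1 in Q7, with a median difference of -0.21 and 7 of the 14 above 0. The median was 0.12 with groups without reads set at the detection limit, and it lay between -0.61 and 0.21 over the alternatives. Ptgs2, the inducible cyclooxygenase, had a difference of 4.05 ± 0.53 and was called with any library left out. The prostaglandin E synthase Ptges (1.12) was called in 6 of the 12 such fits. Hpgd, which degrades prostaglandins, was called toward Q7 in 2 of them, and not without Q7-T replicate 2. Acod1, which makes itaconate, was at 0.818, 0.508 and 0.443 TPM in Q7-T and 38.5, 26.4 and 39.3 TPM in Q111-T.

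**Figure D3:**
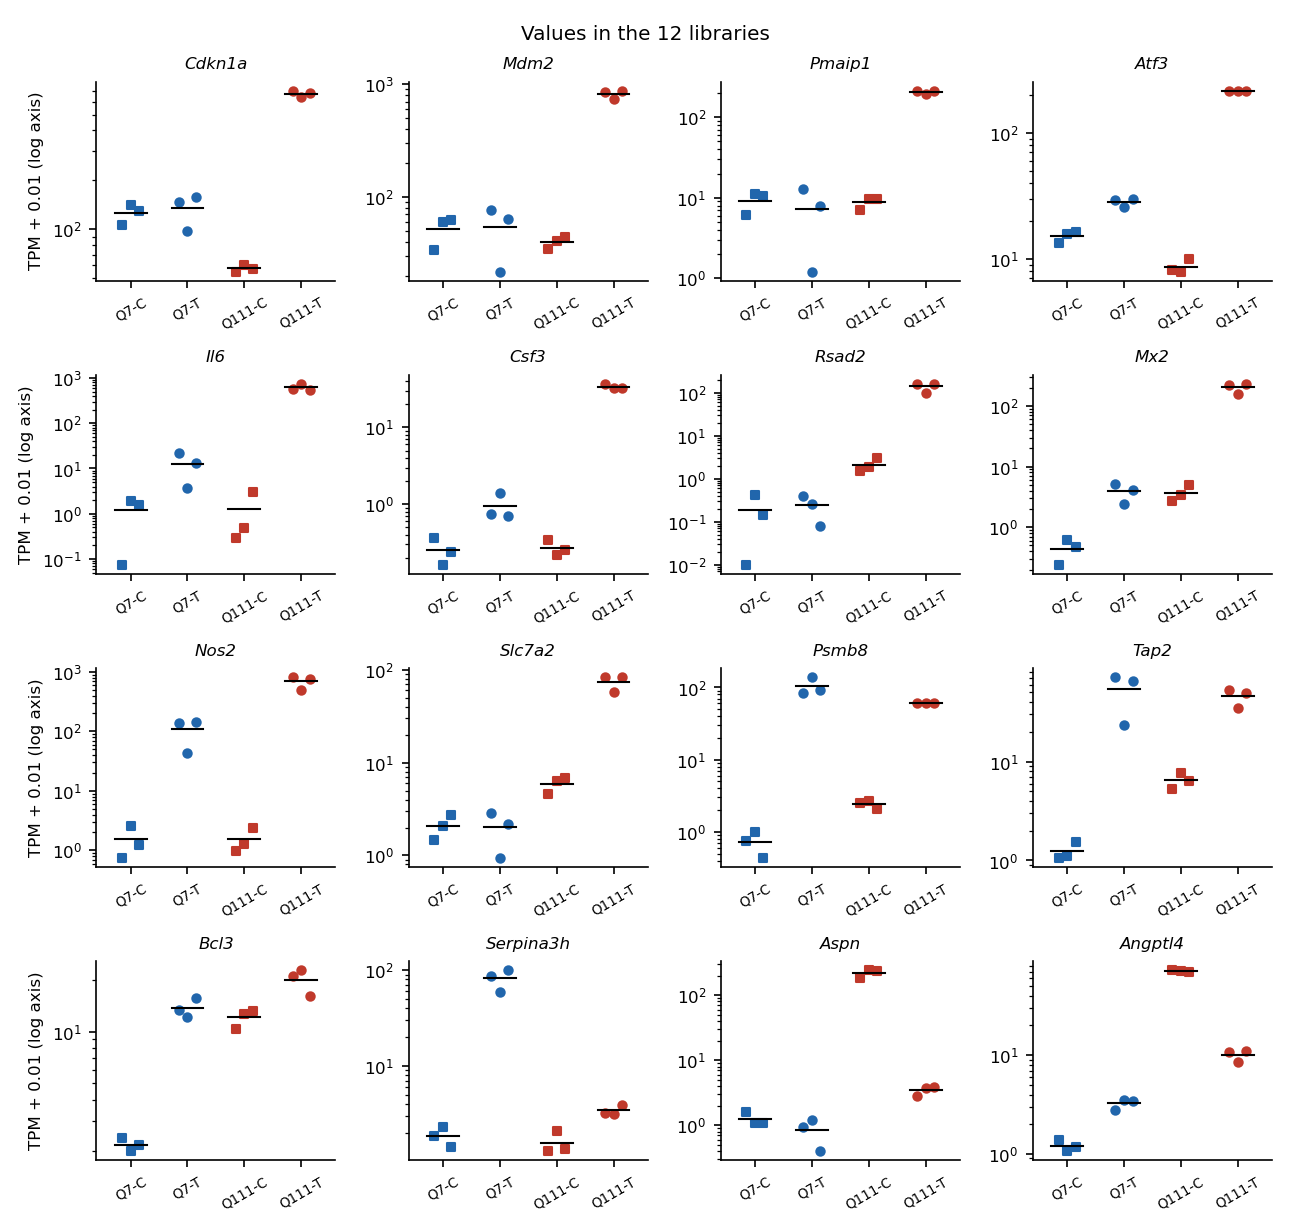
TPM of 16 genes in each of the 12 libraries, with 0.01 added, on a log axis. Squares are nontreated and circles treated libraries, blue is Q7 and red is Q111, bars are group means, and points run from replicate 1 to 3 from left to right. The middle Q7-T point, replicate 2, is the lowest of its group in 11 of the 16 genes.

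The interferon genes went both ways. All 32 antiviral genes tested rose in Q111 and 26 rose in Q7, and 6 differed toward Q111 and 1 toward Q7, with a median difference of 0.24. These values depended on the libraries and on the test. Toward Q111, 10 genes were called without Q7-C replicate 1, 7 without Q7-T replicate 2, 12 without both (median 0.67) and 13 with sample weights by library quality (median 0.76). The count was 3 without Q7-C replicate 2, and also without Q111-C replicate 1 or 2. Over all alternatives it lay between 1 and 16, and the median lay between -0.03 and 1.33. The 6 were Rsad2, Cmpk2, Mx1, Mx2, Ifit2 and Herc6, all known as genes of type I interferon, and Rsad2 was called in 9 of the 12 fits with a library left out. Rsad2, which encodes viperin, stayed at 0.0705 to 0.396 TPM in Q7-T and reached 159, 99.6 and 161 TPM in Q111-T, from 1.51, 1.85 and 2.96 TPM in Q111-C. Mx2 rose in both lines, from 0.230, 0.602 and 0.464 to 5.24, 2.38 and 4.16 TPM in Q7 and from 2.65, 3.43 and 5.01 to 225, 156 and 233 TPM in Q111, a difference of 2.53 ± 0.37. Mx1 and Cmpk2, with differences of 4.06 and 4.61, were called in 4 and 5 of the 12 fits with a library left out, and their Q7 levels were below 1 TPM. Rtp4 was the 1 antiviral gene higher in Q7 (-1.66 ± 0.31). Isg15, a ubiquitin-like antiviral protein, rose by 4.78 in Q7 and 3.98 in Q111, and its difference was not called (adjusted p = 0.117).

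In the lists of IRG and GBP GTPases and of MHC class I and class II presentation, calls were toward Q7 where there were any. The STAT and IRF factors, which also belong to the IFNγ response, had calls in both directions, given below. None of the 19 IRG and GBP GTPases, which attack intracellular pathogens, was called, with a median response of 6.87 in Q7 and 6.27 in Q111. However, 2 were higher in Q7 without Q7-T replicate 2 and 3 without Q7-C replicate 2. With sample weights 1 was higher in Q111 and 0 in Q7, and the median difference of -0.58 became -0.19. All 20 genes of MHC class I presentation rose in both lines, and 17 of them had the larger response in Q7, with a median difference of -0.78. The 14 reference genes had a median of -0.38, between -0.50 and -0.01 over the alternatives, 11 of the 14 lay below 0 and none of them was called. The calls in MHC class I presentation were Psmb8, Tap2 and H2-D1, all higher in Q7, which is 15.0% of the list against 1.2% of all genes tested. The count was 5 without Q7-C replicate 1, 7 without both Q7 libraries with the fewest genes and 6 with sample weights. Psmb8, a catalytic subunit of the immunoproteasome, went from 0.729, 0.978 and 0.424 to 84.6, 140 and 92.2 TPM in Q7 and from 2.49, 2.68 and 2.06 to 61.5, 60.2 and 60.5 TPM in Q111. Tap2, a subunit of the peptide transporter, was at 1.05, 1.11 and 1.53 TPM in Q7-C and 71.5, 23.4 and 65.8 TPM in Q7-T, against 5.22, 7.69 and 6.37 TPM in Q111-C and 53.5, 34.6 and 49.1 TPM in Q111-T. For both genes Q111-C was above Q7-C in every library, and the treated groups overlapped for Tap2 but not for Psmb8. H2-D1 (-1.07) was called in only 2 of the 12 fits with a library left out, and reads of the H2 genes may be shared among near-identical copies. Of the 8 genes of MHC class II presentation tested, 8 rose in Q7 and 4 in Q111. The median difference was -1.86, or -1.42 with groups without reads set at the detection limit, and it lay between -2.96 and -0.54 over the alternatives. H2-DMb1, a chain of the peptide loading factor, was the 1 called (-2.68 ± 0.55), which is 12.5% of the list, and 3 were called with sample weights. It went from 0.663, 0.257 and 0.543 to 6.49, 6.91 and 5.63 TPM in Q7 and from 9.63, 11.2 and 8.63 to 19.1, 23.1 and 18.9 TPM in Q111, where all libraries were above those of Q7.

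By the counts, 384 of the 567 genes higher in Q111 started at a lower level in nontreated Q111 than in nontreated Q7 cells. Of the 193 genes higher in Q7, 124 started at a higher level in nontreated Q111 cells. The nontreated libraries common to both quantities favour each of these directions by construction. Serpina3h, an acute-phase protease inhibitor of a gene cluster with near-identical copies, differed in another way. It went from 1.82, 2.25 and 1.42 to 87.4, 59.5 and 99.6 TPM in Q7 and from 1.27, 2.08 and 1.33 to 3.22, 3.13 and 3.88 TPM in Q111, so the nontreated levels overlapped and the treated levels did not. The NF-κB cofactor Bcl3, the IL-13 receptor chain Il13ra1 and the necroptosis effector Mlkl were also higher in Q7, with differences of -1.98, -2.04 and -1.34, and were called with any library left out. Among KEGG pathways, allograft rejection had the highest share of calls toward Q7 (4 of 24 genes, 16.7%), and antigen processing and presentation had 5 of 53 (9.43%). Each also had 1 gene toward Q111, and the counts of 4 and 5 became 2 and 3 without Q7-T replicate 3, without Q111-C replicate 2 and without any single Q111-T library. The 4 genes of allograft rejection, H2-D1, H2-Q1, H2-Q2 and H2-DMb1, recurred in graft-versus-host disease, autoimmune thyroid disease and type I diabetes mellitus.

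**Figure D4:**
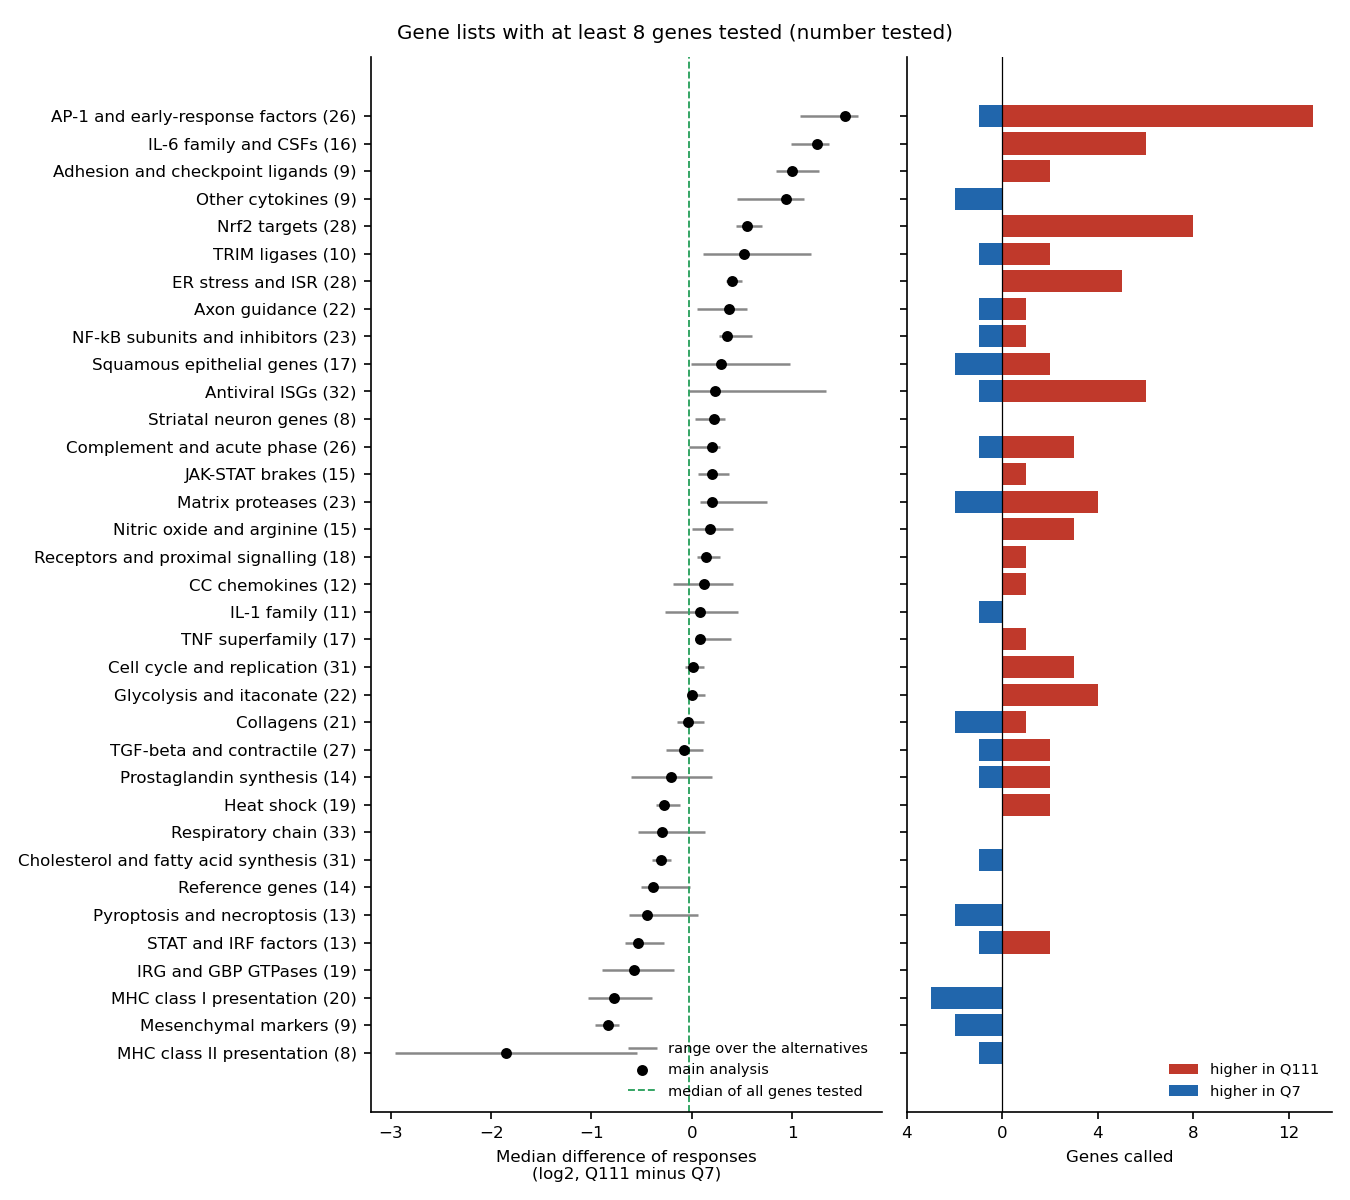
Median difference of responses (log2, Q111 minus Q7) of each gene list with at least 8 genes tested, with its range over the alternative settings, and the number of genes called in each direction. The dashed line is the median of all genes tested, -0.02. Early-response factors lie furthest to the right, at 1.52, and MHC class II presentation furthest to the left, at -1.86.

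Several matrix genes differed toward Q7 through a fall in Q111. Aspn, a small leucine-rich proteoglycan that binds TGF-β, was at 186, 241 and 237 TPM in Q111-C and 2.77, 3.80 and 3.93 TPM in Q111-T, while it was between 0.390 and 1.62 TPM in every Q7 library. Its difference of -5.54 ± 0.69 was thus a loss of a transcript that Q7 cells hardly made. Fbn2, a fibrillin of elastic fibres, and Omd, another proteoglycan, fell in Q111 from 6.68, 9.96 and 8.80 to 0.5, 0.220 and 0.490 TPM and from 40.6, 45.9 and 42.6 to 0.416, 1.14 and 0.736 TPM. Omd also fell in Q7, from 4.27, 10.4 and 8.21 to 1.36, 0.861 and 1.02 TPM. Ccn5, a matricellular protein, was between 10.7 and 14.7 TPM in all 6 Q7 libraries and went from 26.2, 29.1 and 27.4 to 3.20, 2.64 and 3.54 TPM in Q111. Col6a1 and Col6a2, chains of collagen VI, fell in both lines and further in Q111 (-1.14 ± 0.22 and -1.31 ± 0.22). The 21 collagens as a whole fell by a median of 1.11 in Q7 and 1.49 in Q111, with a median difference of -0.04, and Col5a3 differed in the other direction (1.45). Without Q7-T replicate 2, 4 collagens were higher in Q7. Angptl4, an inhibitor of lipoprotein lipase, rose from 1.38, 1.05 and 1.16 to 2.78, 3.49 and 3.46 TPM in Q7 and fell from 72.4, 71.3 and 70.0 to 10.8, 8.47 and 11.1 TPM in Q111. All 9 mesenchymal markers tested had negative differences, with a median of -0.83, and Pdgfra and Pdgfrb were called. Matrix proteases had 4 of 23 higher in Q111, among them the plasminogen activators Plau and Plat, and 2 higher in Q7. The 2 became 1 without Q7-T replicate 2 and 0 without Q7-C replicate 2, without any single Q111-C library and without Q111-T replicate 1.

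Other lists held few members that differed, and most of their counts moved by over 1.5 times with at least 1 library left out. Of 26 complement and acute-phase genes, C1s1, C4b and Cfb were higher in Q111, the last 2 in only 4 and 2 of the 12 fits with a library left out. Without Q7-T replicate 2, 6 genes of this list were higher in Q111, and without Q111-C replicate 1 or 2 none was. C1s1, a protease of the classical pathway, was at 211, 72.8 and 197 TPM in Q7-T and 650, 515 and 690 TPM in Q111-T. Steap4 was called toward Q7, but Q7-C held no reads above the limit, and with that group at the limit its difference was only -0.14. Of 9 adhesion and checkpoint ligands, Cd44 and the T cell costimulator Cd80 were higher in Q111. Cd80 was at 2.33, 1.18 and 2.19 TPM in Q7-T, against 0.985, 1.80 and 1.81 TPM in Q7-C, and went from 10.1, 13.2 and 14.4 to 72.1, 70.6 and 80.1 TPM in Q111. In the TRIM ligases, Trim30a and Trim14 were higher in Q111 and Trim21, an antibody receptor of the cytosol, was higher in Q7. Of 31 genes of cholesterol and fatty acid synthesis 1 was called, the elongase Elovl6 (-2.10 ± 0.22), which went from 20.0, 21.1 and 21.5 to 3.54, 3.02 and 2.95 TPM in Q111 without a call in Q7, and 3 were higher in Q7 without Q7-T replicate 2. Of 31 genes of the cell cycle and replication, the 3 called were Cdkn1a, Ccne2 and Rrm2, and the list's median was 0.01. NF-κB subunits and inhibitors had 1 of 23 called in each direction, Ikbke and Bcl3, and the receptors and proximal signalling list had 1 of 18, the RNA sensor Tlr3 (2.18). STAT and IRF factors had 2 of 13 toward Q111 (Irf2 and Irf5) and 1 toward Q7, and 3 toward Q7 without Q7-T replicate 2. The TNF superfamily and the JAK-STAT brakes had 1 call each, Tnfsf9 of 17 and Pias3 of 15, both toward Q111. The pyroptosis and necroptosis list had 2 of 13 toward Q7 (Mlkl and Casp4), the IL-1 family 1 of 11 (Il1rn) and the other cytokines 2 of 9 (Il13ra1 and Il15ra). The directions of Casp4, Il15ra and Trim21 turned when log2(TPM + 1) was tested. Axon guidance genes had 1 of 22 called in each direction, and 3 toward Q111 and 2 toward Q7 without Q7-T replicate 2. Without that library, the pyroptosis list had 1 toward Q111 and 3 toward Q7, the NF-κB list 2 toward Q111, the IL-1 family 2 toward Q7, and the astrocyte markers 2 toward Q111. TGF-β and contractile genes had 2 of 27 toward Q111 (0 in 7 of the 12 fits with a library left out) and 1 toward Q7, and squamous epithelial genes 2 of 17 in each direction. Of the 8 striatal neuron genes and the 2 endothelial markers tested, 0 were called, 1 of 3 neuron markers (Map2) was higher in Q111 and 1 of 5 astrocyte markers (Slc1a3) was higher in Q7.

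Other KEGG pathways with high shares of calls toward Q111 were rheumatoid arthritis (11 of 57 genes, 19.3%), complement and coagulation cascades (6 of 32, 18.8%), Staphylococcus aureus infection (4 of 22, 18.2%) and folate biosynthesis (3 of 17, 17.6%). Toward Q7, the first 3 of these had 3, 1 and 2 calls and folate biosynthesis 0. The 3 folate genes were Gch1, Mocos and Akr1b10. The 11 arthritis genes became 7 without Q7-C replicate 2, and the 6 of the cascades became 3 without Q111-C replicate 1 or 2, where the 4 of the Staphylococcus map became 1. MicroRNAs in cancer (23 of 132), breast cancer (20 of 115), nicotinate and nicotinamide metabolism (4 of 23) and prion diseases (4 of 23) each had 17.4%, with 3, 1, 0 and 0 calls toward Q7. The nicotinate genes were Nt5c3, Nt5e, Pnp2 and Pnp, enzymes of nucleotides and nucleosides. The prion disease count became 1 without Q7-C replicate 2, without Q111-C replicate 1 or 2 and without Q111-T replicate 1 or 3. The called genes of the breast cancer map included the Notch ligands Jag2 (4.36) and Dll1 (3.37), the receptors Notch1 (1.5) and Notch3 (2.76) and the target Hey1 (2.03), which were picked out after their values were seen. In the KEGG map of Notch signaling itself, 4 of 42 genes (9.52%) were higher in Q111 and 1 was higher in Q7, with a median difference of 0.08. Jag2 had mean levels of 0.786 and 0.479 TPM in Q7-C and Q7-T and 0.301 and 4.03 TPM in Q111-C and Q111-T. Toward Q7 the other maps were the intestinal immune network for IgA production (3 of 21, 14.3%), inflammatory bowel disease (4 of 34, 11.8%) and beta-alanine metabolism (2 of 21, 9.52%). Toward Q111 these had 2 (Il6 and Cd80), 2 (Il6 and Jun) and 1 (Aldh1a3). The 2 genes of beta-alanine metabolism, Acadm and Sms, were both without a call when Q7-T replicate 2 was left out.

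The 12 largest and 12 smallest were taken from 333 genes that had at least 5 TPM in a group and were called with any library left out. Beside those already given, Zfp750, a zinc finger factor of epidermal differentiation, was below 1 TPM in every Q7 and Q111-C library and at 13.8, 13.0 and 12.8 TPM in Q111-T (6.55 ± 0.61). Grhl3, another factor of epidermal differentiation, was at 0 TPM in Q111-C and at 7.70, 9.18 and 8.82 TPM in Q111-T, a lower bound of 5.90 log2 units for the difference. Of the Wnt ligands, Wnt9a went from 0.815, 1.59 and 1.54 to 31.1, 24.3 and 29.2 TPM in Q111 and was at 0.782 to 4.57 TPM in Q7. Wnt4 was at 11.8, 7.79 and 9.74 TPM in Q7-C and 2.12, 2.11 and 2.46 TPM in Q7-T, and rose from 0.112, 0.150 and 0 to 2.35, 2.67 and 1.77 TPM in Q111. Its treated groups overlapped, and its Q7 response of -1.96 was not called. Mybl1, Fgf18, Fgfbp3, Kcnj4 and Svop had differences between 4.19 and 4.78 toward Q111. Toward Q7 the rule named Kcnj2, Cldn15 (-3.40), Amigo2 (-3.32), Olfml3 (-3.29) and Trib2 (-2.96). Kcnj2, a potassium channel, was below 0.5 TPM in all 6 Q7 libraries and went from 8.26, 10.9 and 10.9 to 1.02, 1.26 and 1.30 TPM in Q111. Its difference was -4.89, but -3.34 without Q7-T replicate 2 and -2.85 with sample weights. Amigo2, an adhesion protein of neurons and glia, rose in Q7, from 1.25, 0.912 and 1.69 to 10.6, 9.61 and 11.9 TPM, and was below 0.2 TPM in all 6 Q111 libraries.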

How the data were processed

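RNA-seq of 12 libraries was used. Per the labels and the study's methods, the authors made poly(A) libraries, trimmed reads with Cutadapt, aligned them with HISAT2 to GRCm38 and estimated transcripts with StringTie, whose versions are not given in the sources used here. The deposited table holds TPM values by the authors, scaled for transcript length and library within each library, and an estimated count per gene by the authors that was not normalized. In the counts, 1 read pair is worth about 4, so 12 counts (3 read pairs) were taken as the detection limit. The filter on low genes asked for 0.5 TPM or more in 3 or more libraries. Counts were rounded and fitted with edgeR 4.0.16 (R 4.3.3, TMM, quasi-likelihood) on all 12 libraries with 4 group means, and the difference of responses was tested with Benjamini-Hochberg adjustment over all 16127 genes. Calls needed an adjusted p under 0.05 and at least 2-fold. Values given with ± are standard errors on the log2 scale. Alternatives were edgeR with RLE factors, DESeq2 1.42.0, limma 3.58.1 on log2 TPM, sample weights, a test against 2-fold, other filters, counts divided by 4, a replicate block and each library left out. Leaving out both Q7 libraries with the fewest genes was added after seeing the data.

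Members and the 41 gene lists were chosen with earlier results of these data known. Of 820 list entries, 678 were tested, and 2 older symbols were matched through RefSeq. Named genes outside the lists were the 12 largest and 12 smallest differences among calls with at least 5 TPM in a group, an established symbol with a single row, at most 1 group at the limit and a call with any library left out, and KEGG maps were those of the deposited annotation. No interval from counts is given, and counting error is larger for groups that hold few read pairs.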

Additional observations from a re-analysis of the deposited data

Results flagged for a closer look

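The test of the difference itself passed for 567 genes higher in Q111 and 193 genes higher in Q7. Among these, 11 genes were called in opposite directions in the 2 lines. Rising in Q7 and falling in Q111 were Angptl4 (-4.37) and Pde1a (-2.26), a phosphodiesterase of cyclic nucleotides. Falling in Q7 and rising in Q111 were Fosb (4.96), Stra6 (4.53), a receptor for retinol uptake, Snai3 (3.64), the receptor tyrosine kinase Ret (3.42), Tent5a (3.14), Abi3bp (2.56), Mcam (2.52), Egr1 (2.49) and Plau (2.09). The difference between the lines was called for each of the 11 with any library left out, whereas their calls within each line were not refitted that way. Pde1a went from 3.48, 5.66 and 5.90 to 12.1, 7.03 and 12.1 TPM in Q7 and from 5.94, 6.21 and 7.22 to 2.98, 2.44 and 3.47 TPM in Q111, without overlap in either line. Plau was lowest in Q7-T replicate 2, at 1.60 TPM against 6.17 and 5.11 TPM.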

How the results depend on the processing

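The 760, 567 and 193 calls (all, higher in Q111, higher in Q7) became 1299, 905 and 394 with DESeq2, 2069, 1396 and 673 with sample weights, 192, 164 and 28 in the test against 2-fold, and 1374, 1046 and 328 without both Q7 libraries with the fewest genes. With a library left out they ranged from 510 to 998, 372 to 724 and 138 to 274, the 372 without Q111-C replicate 2 and the highest totals without Q7-T replicate 2. The replicate numbers do not pair the samples (correlations of same-numbered deviations from -0.416 to 0.303), and with a replicate block 622 genes were called. limma on log2(TPM + 0.5) called 840 genes, 449 of them shared with the 760, and 6 of the 760 changed sign. Of 140 named genes with a call, 138 kept it with RLE factors, 102 with log2(TPM + 0.5) and 56 in the test against 2-fold. The direction turned in limma for Il15ra (0.20 with log2(TPM + 0.5) and 0.59 with log2(TPM + 1)), Casp4 (0.061 with + 1), Trim21 (0.077 with + 1) and Serpinb5 (-0.56, -0.0067 and -0.52 with + 0.5, + 0.1 and + 1). The cause was not tested. Values below 1 TPM limit the precision of Rsad2, Mx1, Cmpk2, Il6, Acod1 and Kcnj2 in Q7 and of Csf2 in Q111-C.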
